A study of Homo sapiens with 3 samples.

Results

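The genes described here are the part of the insulin-like growth factor (IGF) axis that binds and receives the ligand: the binding proteins IGFBP2, IGFBP3, IGFBP4, IGFBP5 and IGFBP6, the receptors IGF1R, IGF2R and INSR, and the docking proteins IRS1 and IRS2. These 10 genes, of 22499 genes with a symbol in the count tables, were chosen by symbol and were found in all 3 tables. The fall of IGFBP5 in cocultured sensitive cells was part of the choice, so the values of that contrast are a description and support nothing by themselves. All 10 passed the minimum of 50 UMIs (unique molecular identifiers, which count captured RNA molecules) over the 2 populations of each comparison.

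IGFs reach cells bound to IGF binding proteins, which carry the ligand, hold it away from its receptor or release it when a protease cuts them. IGF1R and INSR are receptor tyrosine kinases that phosphorylate IRS1 and IRS2, which then recruit PI3-kinase, and IGF2R takes up IGF2 and sends it for degradation. In estrogen receptor-positive breast cancer cells this axis is known as a mitogenic input that cooperates with estrogen.

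RNA of single cells was measured in spheroids of CAMA-1, an established estrogen receptor-positive breast cancer cell line. Sensitive cells carried the fluorescent protein mVenus and resistant cells carried mCherry; the resistant line had been made by long culture in ribociclib, an inhibitor of the cell cycle kinases CDK4 and CDK6. The spheroids, started from 2000 cells, held 100% sensitive cells, 50% of each, or 100% resistant cells. All were treated with DMSO and 1 µM ribociclib for 11 days and their cells were frozen and thawed before capture, so every population shared the drug and no untreated cells were analysed here. There was 1 library per condition, and fluorescent label, line and history of selection cannot be told apart. No test across samples was possible; intervals are exact 95% intervals and cover counting error only, and differences between libraries can also arise from handling.

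The authors' annotation placed 19237 cells in 4 populations: 3329 sensitive cells from monoculture, 2059 sensitive and 6292 resistant cells from coculture, and 7557 resistant cells from monoculture. The populations held 70896822 to 270891547 UMIs, with medians of 27622 to 35443 UMIs per cell. The median mitochondrial share was 20.9% in sensitive monoculture cells and 15.2% to 17.3% in the others. Cells annotated S or G2M made up 11.0% of sensitive monoculture cells and 44.7% to 50.3% of the others. All 7 luminal epithelial markers were expressed (ESR1 at 14.2 to 20.2 CPM, counts scaled to a total of 1e6 UMIs). Of the 5 fibroblast markers COL1A1 lay at 2.40 to 3.61 CPM and the other 4 had at most 13 UMIs in a population; LUM had 0 in all 4. The leukocyte markers and the endothelial marker VWF had at most 28 UMIs in a population. The other endothelial marker, PECAM1, was not found under that symbol.

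The library probes the 3′ end of transcripts, so a gene counts about 1 UMI per captured molecule and levels are compared here between populations, not between genes. Positions are those of GENCODE 44 lifted to GRCh37. IGFBP2 (chr2:217497551-217529159, plus strand) and IGFBP5 (chr2:217536828-217560272, minus strand) are neighbours with 7668 bases between their ends, and IRS1 (chr2:227596028-227664536) lies on the same chromosome. IGFBP3 is at chr7:45951844-45961473, IGFBP4 at chr17:38599702-38613977 and IGFBP6 at chr12:53491220-53496129. IGF1R is at chr15:99191768-99507759, IGF2R at chr6:160390114-160534539, INSR at chr19:7112266-7294425 and IRS2 at chr13:110405042-110438930.

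The promoters of IGFBP5 and IGFBP4 are shown because IGFBP5 is the gene that passed the 1.5-fold limit in sensitive cells and IGFBP4, whose ratio there had the opposite sign but stayed within that limit, is the other one of the 10 with TATA box letters. Each line gives the 150 bases before the RefSeq start site, 5′ to 3′ on the gene's strand, with a TATA box or TATA-like heptamer in capitals. On GRCh38.p14 they span chr2:216695550-216695699 (minus strand) and chr17:40443300-40443449 (plus strand).
IGFBP5: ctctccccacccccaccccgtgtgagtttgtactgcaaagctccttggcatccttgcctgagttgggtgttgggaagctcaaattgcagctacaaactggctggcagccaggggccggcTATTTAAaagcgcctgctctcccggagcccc
IGFBP4: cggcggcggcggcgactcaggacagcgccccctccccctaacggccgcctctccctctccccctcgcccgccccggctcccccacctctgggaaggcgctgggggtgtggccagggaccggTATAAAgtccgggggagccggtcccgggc
The letters TATTTAA began 31 bases before the IGFBP5 start and TATAAA began 29 bases before the IGFBP4 start. Searched on both strands of the 300-base RefSeq windows (250 bases before to 50 after the start), TATTTAA was in 4.52% and TATAAA in 11.5% of all 35116 promoters. Among the 10 genes, each of these was found in 1 gene's window. The GC box letters GGGCGG, in 45.0% of all promoters, were in a window of every one of the genes except IGFBP5. The IGFBP5 window held 59% G or C, close to the median of 58.7% over all promoters. IGFBP6 held 61.7% and the 3 windows of IGFBP2 held 55.3%, 56.7% and 70%, while those of IGFBP3, IGFBP4, IRS1, IRS2 and the 3 receptors held 74% to 79.7%.

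IGFBP5 binds IGFs and is also held in the extracellular matrix. Its summed level was 3385 CPM in sensitive monoculture cells, 1390 in cocultured sensitive cells, 1662 in cocultured resistant cells and 1576 in resistant cells grown alone. Sensitive cells grown alone thus stood above the other 3 populations, and sensitive cells in coculture were below both resistant populations. In sensitive cells the level was 2.44-fold lower in coculture (interval 2.42 to 2.45), a log2 ratio of CPM + 1 of -1.28. In resistant cells the coculture level was 1.05-fold that of monoculture (1.05 to 1.06). A basal keratinocyte marker, KRT14, was also highest in sensitive cells grown alone, but its order in the other populations differed from that of IGFBP5. It stood at 3.58 CPM (345 UMIs) in sensitive cells grown alone and 0.607 in cocultured sensitive cells. In resistant cells it stood at 0.711 in coculture and 0.221, its lowest level, in monoculture. The other 2 basal markers, KRT5 and TP63, had at most 1 and 11 UMIs in a population. Any relation of KRT14 to the IGFBP5 values was not tested.

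**Figure D1:**
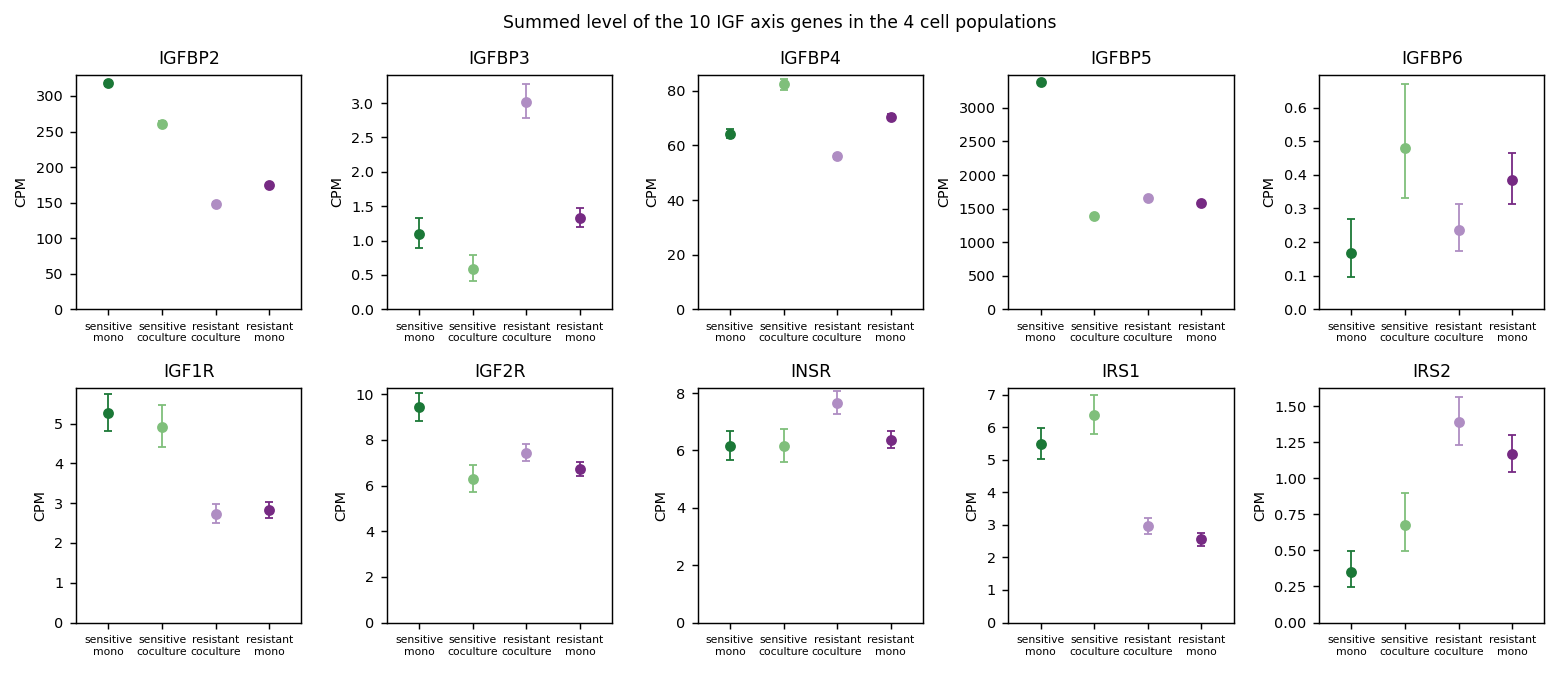
Summed level (CPM, linear axes from 0, a scale of its own in each panel) of the 10 IGF axis genes in the 4 cell populations; points are sums over cells and bars exact 95% counting intervals. IGFBP5 stands at 3385 CPM in sensitive monoculture cells against 1390 to 1662 in the other populations, while IGF1R and IRS1 are lower in both resistant populations.

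With every cell thinned to 5000 UMIs, the median IGFBP5 count was 14 in sensitive monoculture cells, 5 in cocultured sensitive cells and 6 in both resistant populations. The 10th and 90th percentiles were 3 and 44 in sensitive monoculture cells and 1 and 17 in cocultured sensitive cells. A cell at or above 14 UMIs was found among 50.6% of sensitive monoculture cells (48.9% to 52.3%), 15.2% of cocultured sensitive cells (13.7% to 16.8%), 20.4% of cocultured resistant cells and 19.0% of resistant cells grown alone. The distributions overlapped, but sensitive monoculture had a tail of high cells. At most 80 UMIs were held by 98.7% of its cells, against 99.99% to 100% of cells in the other 3 populations. The highest cell held 142 UMIs in sensitive monoculture and 67 to 84 in the others. An IGFBP5 UMI was found in 91.9% to 98.2% of thinned cells, and in 99.4% to 99.9% of cells before thinning, in the 4 populations. All cells were of 1 line, so no cell type lacking the gene gives the share due to free RNA; none was subtracted, and these shares are not read as shares of expressing cells. The 1% of cells with most IGFBP5 UMIs held 4.77% to 5.66% of its UMIs.

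**Figure D2:**
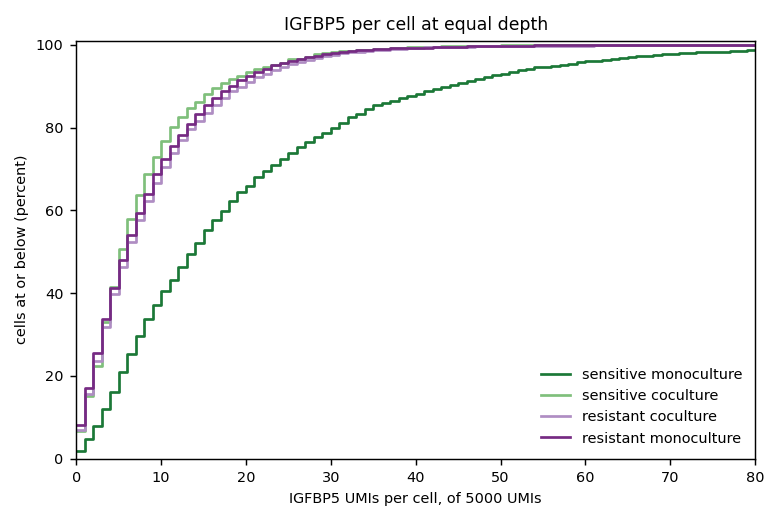
Percent of cells (vertical axis) with at most a given number of IGFBP5 UMIs (horizontal axis) after each cell was thinned to 5000 UMIs, 1 line per population. The sensitive monoculture line lies to the right, with a median of 14 UMIs against 5 or 6 in the other 3 populations.

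The level also followed the annotated cell cycle phase, and the share of cells in each phase differed between the populations. In sensitive monoculture cells IGFBP5 stood at 3683 CPM in G1, 1544 in S and 1586 in G2M. In cocultured sensitive cells it stood at 1697 CPM in G1, 979 in S and 1136 in G2M. G1 cells had the highest level in the resistant populations too, at 1831 CPM in coculture and 1752 in monoculture, against 1327 to 1592 in their S and G2M cells. The S over G1 log2 ratio of CPM + 1 was -1.25 in sensitive cells grown alone and -0.79 in cocultured sensitive cells, and -0.34 (coculture) and -0.40 (monoculture) in resistant cells.

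Within a phase, the coculture over monoculture log2 ratio of IGFBP5 in sensitive cells was -1.12 in G1, -0.66 in S and -0.48 in G2M. The fall was thus present in each phase, and in G2M it did not reach 1.5-fold. Sensitive monoculture had 176 cells in S and 190 in G2M, against 2963 in G1, so its S and G2M levels rest on few cells. Between the monocultures, resistant over sensitive, the log2 ratio was -1.07 in G1, -0.22 in S and -0.04 in G2M.

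**Figure D3:**
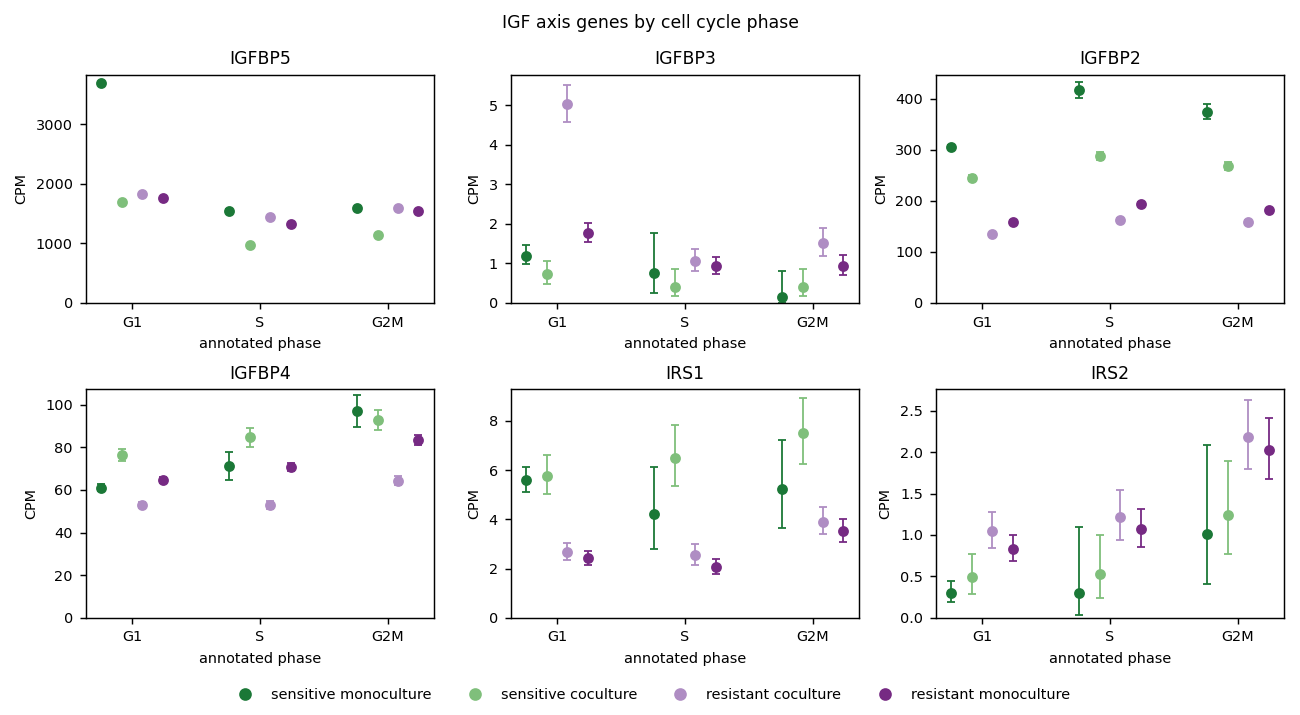
Level (CPM, linear axes from 0) of 6 IGF axis genes by annotated cell cycle phase and population; bars are exact 95% counting intervals. IGFBP5 and IGFBP3 were highest in G1, IGFBP5 most so in sensitive monoculture (3683 CPM) and IGFBP3 in resistant coculture (5.03 CPM), while IRS2 was highest in G2M in each population.

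The authors' 14 clusters, which were made from expression and may have used IGFBP5, are given as a description. Sensitive monoculture cells of cluster 8 (681 cells) had 5665 CPM of IGFBP5, those of cluster 12 (156 cells) 4774 and those of cluster 4 (1945 cells) 3205. The clusters with at least 50 sensitive cells from both cultures were 3, 4 and 7. In cluster 3 the level was 1871 CPM in monoculture and 1504 in coculture. In cluster 4 the levels were 3205 and 2107, and in cluster 7, of cells almost all outside G1, 1437 and 985. The level was lower in coculture in each of the 3, but by less than the 2.44-fold over all sensitive cells. Cluster 4 held 1945 of the 3329 sensitive monoculture cells, so the sums over all cells also reflect how each culture was spread over the clusters. Resistant cells had a group with high IGFBP5 of their own: cluster 6 stood at 3576 CPM in coculture (507 cells) and 3190 in monoculture (576 cells), against 1586 and 1558 in cluster 0.

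**Figure D4:**
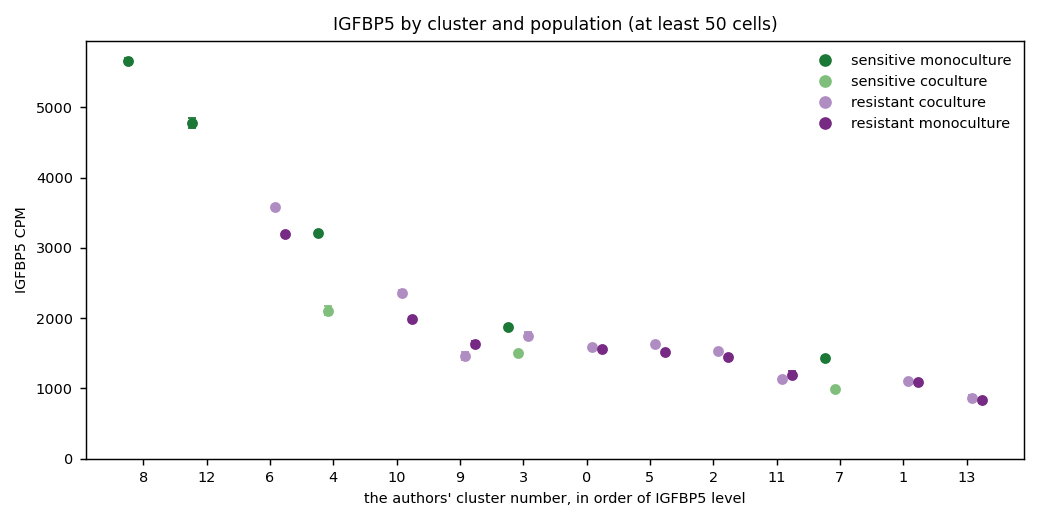
IGFBP5 level (CPM, linear axis from 0) by the authors' cluster, in order of the level over all cells, for each population with at least 50 cells in the cluster; bars are exact 95% counting intervals. In clusters 3, 4 and 7 the sensitive monoculture point lies above the sensitive coculture point, and clusters 8 and 12 hold a point for sensitive monoculture cells alone.

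IGFBP2, the neighbour of IGFBP5 on chromosome 2, had another pattern. Its level was 318 CPM in sensitive monoculture cells, 261 in cocultured sensitive cells, 149 in cocultured resistant cells and 175 in resistant cells grown alone. Both sensitive populations were above both resistant ones, and coculture was below monoculture in each line. The resistant over sensitive log2 ratio of CPM + 1 was -0.86 between the monocultures and -0.81 within coculture, and coculture over monoculture it was -0.28 in sensitive and -0.23 in resistant cells. Of cells thinned to 5000 UMIs, 71.5% and 65.7% of sensitive cells (monoculture and coculture) held an IGFBP2 UMI, against 46.3% and 48.1% of resistant cells (coculture and monoculture); without thinning these shares were 97.4%, 97.9%, 84.8% and 86.1%.

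By phase, IGFBP2 ran opposite to IGFBP5. It was lowest in G1 in all 4 populations, at 305 CPM in G1, 417 in S and 375 in G2M of sensitive monoculture cells. Its S over G1 log2 ratio was 0.23 to 0.45 in the 4 populations. Over the 12 groups of population and phase, which share libraries, the levels of IGFBP2 and IGFBP5 had a Pearson correlation of 0.02. Over the thinned cells of sensitive monoculture, all phases together, their Spearman correlation was -0.15 (3329 cells), a weak relation. It was -0.09 in cocultured sensitive cells, and of the other sign in resistant cells, at 0.05 in coculture and 0.03 in monoculture. The sensitive monoculture value was the farthest from 0 of any pair of the 10 genes in any population. This ranking says little, since counts that are 0 in most thinned cells pull most other pairs toward 0.

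IGFBP4, an inhibitor of IGF action until the protease PAPPA cuts it, had coculture over monoculture ratios of opposite sign in the 2 lines. Its level was 64.3 CPM in sensitive monoculture cells, 82.3 in cocultured sensitive cells, 55.9 in cocultured resistant cells and 70.6 in resistant cells grown alone. The lines lay farther apart in coculture: the highest and the lowest of the 4 values were those of the 2 cocultured populations. The fold of coculture over monoculture was 1.28 in sensitive cells (1.24 to 1.33) and 0.793 in resistant cells (0.774 to 0.811), both within 1.5-fold. IGFBP4 was highest in G2M in each population, with a G2M over G1 log2 ratio of 0.28 to 0.66. In G2M cells the sensitive populations stood at 96.9 CPM (monoculture) and 92.8 CPM (coculture), with intervals that overlapped.

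IGFBP3, which carries most circulating IGF and can restrain growth, was at low level. It had 105 UMIs (1.09 CPM) in sensitive monoculture cells, 41 (0.578 CPM) in cocultured sensitive cells, 603 (3.02 CPM) in cocultured resistant cells and 360 (1.33 CPM) in resistant cells grown alone. Resistant cells in coculture stood above the other 3 populations. Their fold over resistant monoculture was 2.27 (1.99 to 2.60), and over the sensitive cells of the same library 5.22 (3.80 to 7.35). In sensitive cells it was 1.89-fold lower in coculture (1.30 to 2.78), a log2 ratio of CPM + 1 of only -0.41 at these levels. In S or G2M cells only, the sensitive log2 ratio was -0.03, with few UMIs. G1 cells held 94.3% of the IGFBP3 UMIs of sensitive monoculture, against 86.0% of all UMIs of that population.

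The IGFBP3 UMIs came from few cells. It was detected in 341 of 6292 cocultured resistant cells (5.42%) and in 203 of 7557 resistant cells grown alone (2.69%), or 1.43% and 0.688% after thinning. In resistant coculture 67 cells held 50% of its UMIs, with at most 17 UMIs in a cell. These UMIs were mostly in G1 cells: 77.4% of them, against 46.5% of all UMIs of that population. The G1 level was 5.03 CPM in resistant coculture and 1.77 CPM in resistant monoculture, and the S and G2M levels of both lay between 0.923 and 1.51 CPM. The coculture over monoculture log2 ratio of CPM + 1 was 1.12 in G1, 0.10 in S and 0.37 in G2M, so the rise was largest in G1 cells.

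IGFBP6, which prefers IGF2, was near the limit of detection. It had 16, 34, 47 and 104 UMIs in the 4 populations, in the order of the preceding paragraphs, or 0.166, 0.480, 0.235 and 0.384 CPM. The fold of coculture over monoculture was 2.88 in sensitive cells (1.55 to 5.60) and 0.613 in resistant cells (0.425 to 0.873). Of the binding proteins that were not among the 10, IGFBP1 had 0 UMIs in every population (a limit of 3 counts) and IGFBP7 at most 3.

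IGF1R, the receptor that carries the growth signal of IGF1 and IGF2, was lower in resistant cells in the sums over all phases. Its level was 5.26 CPM in sensitive monoculture cells, 4.92 in cocultured sensitive cells, 2.73 in cocultured resistant cells and 2.82 in resistant cells grown alone. Coculture and monoculture overlapped in their intervals in each line, while the sensitive levels were clear of the resistant ones. Resistant over sensitive, the fold was 0.537 between monocultures (0.479 to 0.602) and 0.555 within coculture (0.484 to 0.636). On the CPM + 1 scale it was past the 1.5-fold limit in both (log2 ratios -0.71 and -0.67), but not between monocultures in S or G2M cells only (-0.46), which are few in sensitive monoculture, nor within coculture in G1 cells only (-0.56). A UMI was found in 13.3% and 14.5% of sensitive cells (monoculture and coculture) and in 7.80% and 8.63% of resistant cells (coculture and monoculture), and after thinning in 2.58%, 2.28%, 1.32% and 1.28%. In cluster 6, the resistant group with high IGFBP5, it stood at 1.55 CPM over all cells. This cluster was picked for its IGFBP5 level and IGF1R in other clusters is not given here, so no relation is read.

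INSR, the insulin receptor, stayed within 1.5-fold in all 4 comparisons. It stood at 6.15 CPM in both sensitive populations, 7.66 in cocultured resistant cells and 6.37 in resistant cells grown alone. The interval of the cocultured resistant cells (7.28 to 8.06) was clear of the others in these sums. Cells thinned to 5000 UMIs kept a mean of only 0.0291 to 0.0409 INSR UMIs, too few to decide whether this holds at equal depth. An INSR UMI was then held by 3.88% and 2.77% of sensitive cells (monoculture and coculture). In resistant cells the shares were 3.56% and 3.44% (coculture and monoculture), and all 4 intervals overlapped. Before thinning the shares were 15.6%, 18.4%, 20.8% and 19.8%. In thinned cells the coculture over monoculture log2 ratio was -0.43 in sensitive and 0.05 in resistant cells. IGF2R, the clearance receptor, stood at 9.43 CPM in sensitive monoculture cells, 6.30 in cocultured sensitive cells, 7.43 in cocultured resistant cells and 6.73 in resistant cells grown alone. Its pattern in these sums was like that of IGFBP5 in that sensitive monoculture cells were highest and cocultured sensitive cells lowest. Sensitive coculture and resistant cells grown alone, neighbours in that order, had overlapping intervals. The IGF2R fold in sensitive cells, coculture over monoculture, was 0.668 (0.595 to 0.749). After thinning, an IGF2R UMI was held by 4.60%, 3.50%, 3.72% and 3.48% of cells in the same order of populations, and all 4 intervals overlapped.

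The docking proteins differed in opposite directions between the monocultures. IRS1 stood at 5.49 CPM in sensitive monoculture cells, 6.36 in cocultured sensitive cells, 2.96 in cocultured resistant cells and 2.55 in resistant cells grown alone. The resistant over sensitive fold was 0.465 both between monocultures (0.415 to 0.522) and within coculture (0.410 to 0.526). IRS2 had 34 UMIs (0.353 CPM), 48 (0.677), 277 (1.39) and 316 (1.17) in the same order of populations, and its resistant over sensitive fold was 3.30 between monocultures (2.31 to 4.85) and 2.05 within coculture (1.504 to 2.85). IRS1 was lower in resistant cells by more than 1.5-fold in both comparisons. IRS2 passed the fold in CPM + 1 between monocultures (log2 ratio 0.68, and 0.49 in G1 cells only, which does not pass) and not within coculture (0.51). IRS2 was highest in G2M in each population, with a G2M over G1 log2 ratio of 0.59 to 0.72, and reached 2.19 CPM in G2M of resistant coculture against 1.04 in G1. In sensitive monoculture this rests on 7 UMIs in G2M and 25 in G1.

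Counted over the 10 genes by a fold of at least 1.5 in CPM + 1, 1 passed in each line in coculture over monoculture. In sensitive cells, coculture over monoculture, 0 were higher and 1 was lower (IGFBP5, the gene the choice used), where 5.13% of 12326 genes were higher and 5.91% lower. In resistant cells 1 was higher (IGFBP3) and 0 lower, where 0.661% of 13155 genes were higher and 0.0304% lower. The median log2 ratio of the 10 was -0.04 in sensitive and 0.10 in resistant cells, beside -0.05 and 0.03 over all genes.

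Between the lines 5 passed in monoculture and 4 within coculture. Resistant over sensitive in monoculture, 1 was higher (IRS2) and 4 lower (IGFBP2, IGFBP5, IGF1R and IRS1), where 6.65% of 12968 genes were higher and 12.5% lower. Within coculture 1 was higher (IGFBP3) and 3 lower (IGFBP2, IGF1R and IRS1), where 2.04% of 12772 genes were higher and 4.09% lower. IGFBP2, IGF1R and IRS1 were lower in resistant cells in both; the comparisons use different libraries for the monocultures and the same library in coculture. The median log2 ratio of the 10 was -0.19 between monocultures and -0.03 within coculture, beside -0.07 and 0.00 over all genes.

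**Figure D5:**
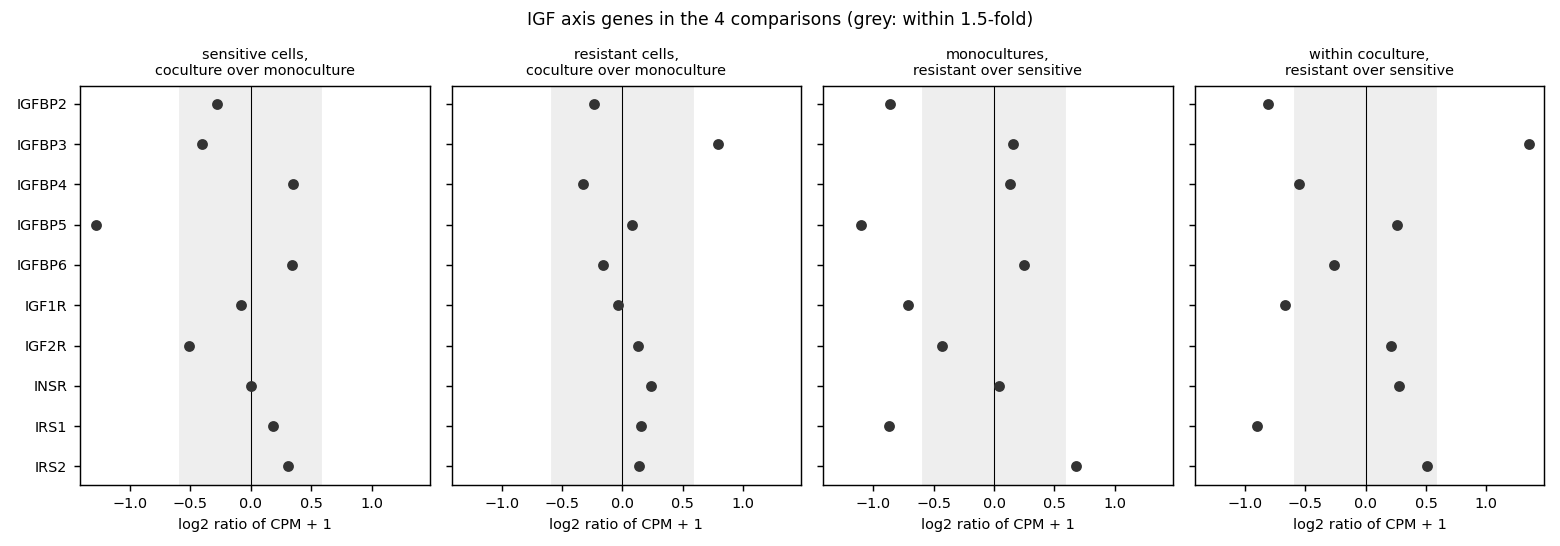
Log2 ratio of CPM + 1 (horizontal axis) of the 10 IGF axis genes in the 4 comparisons, 1 panel each; the grey band spans ratios within 1.5-fold. IGFBP5 lies outside the band to the left in sensitive cells (-1.28) and between monocultures (-1.10), and IGFBP3 to the right in resistant cells (0.79) and within coculture (1.35).

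The ligands and proteins that control their supply were given by a list of 12 genes. The ligands were all but absent: IGF1 had at most 4 UMIs in a population, IGF2 at most 8 and INS at most 5. Of the list, 5 genes had 50 UMIs in the sensitive comparison, of which 1 was higher and 1 lower in coculture (5.13% and 5.91% of all genes). Stanniocalcins inhibit PAPPA, which cuts IGFBP4 and IGFBP5. STC2 stood at 163 CPM in sensitive monoculture cells, 44.1 in cocultured sensitive cells, 32.5 in cocultured resistant cells and 19.9 in resistant cells grown alone, and so was highest where IGFBP5 was highest. STC1 stood at 6.10, 10.0, 15.1 and 9.73 CPM, lowest where STC2 was highest. HTRA1, a protease that cuts binding proteins, had 70, 16, 19 and 21 UMIs (0.727, 0.226, 0.0952 and 0.0775 CPM); its log2 ratio of CPM + 1 was -0.49 in sensitive cells, coculture over monoculture. PAPPA stood at 0.233 to 0.426 CPM. In resistant cells 2 of 5 (STC1 and STC2) were higher in coculture and 0 lower, where 0.661% and 0.0304% of all genes were. Between monocultures 1 of 6 was higher and 2 lower (6.65% and 12.5% of all genes), and within coculture 0 of 5 passed in either direction (2.04% and 4.09%).

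Downstream, 27 of 30 signalling genes passed the UMI minimum in each comparison. In sensitive cells, coculture over monoculture, 1 was higher and 1 lower, beside 5.13% and 5.91% of all genes. The lower one was SOCS2, a feedback inhibitor of growth hormone and IGF signalling, at 13.3 CPM in sensitive monoculture cells, 2.72 in cocultured sensitive cells, 3.01 in cocultured resistant cells and 2.82 in resistant cells grown alone. Sensitive cells grown alone stood highest, as for IGFBP5, and the intervals of the other 3 populations overlapped. The higher one was GRB14, an adaptor that inhibits the insulin receptor, at 1.41, 4.30, 0.751 and 0.808 CPM, so that cocultured sensitive cells stood above the others. FOXO1, a transcription factor that AKT keeps out of the nucleus, stood at 2.31, 1.21, 3.04 and 2.72 CPM, just within the fold (log2 ratio -0.58).

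Between monocultures, 0 of the 27 signalling genes were higher in resistant cells, beside 6.65% of all genes. In the other direction 4 were lower, near the 12.5% of all genes that were lower. Among them PIK3R1, a regulatory subunit of PI3-kinase, stood at 24.3 CPM in sensitive and 12.2 in resistant cells grown alone, and PIK3CA, a catalytic subunit, at 13.2 and 7.44. SOCS2 and PIK3R3 were the other two. In resistant cells, coculture over monoculture, 0 of 27 passed the fold in either direction, where 0.661% of all genes were higher and 0.0304% lower. Within coculture 1 was higher (FOXO1, log2 ratio 0.87) and 1 lower (GRB14, -1.60), beside 2.04% and 4.09% of all genes. The list's median log2 ratio was -0.16 in sensitive cells, 0.05 in resistant cells, -0.30 between monocultures and 0.01 within coculture, beside -0.05, 0.03, -0.07 and 0.00 over all genes.

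Of the 4685 genes that averaged 20 CPM or more, those whose levels were most like IGFBP5 over the 12 groups of population and phase were SPTSSB (Pearson correlation 0.98), TAF7 (0.96), KIAA0232 (0.96) and NORAD (0.95). The groups share libraries and cells of 1 line, so these values are descriptions. A correlation does not measure the size of a change. From sensitive monoculture to sensitive coculture, TAF7 stood at 143 and 97.1 CPM, KIAA0232 at 48.9 and 31.0 and NORAD at 52.7 and 32.2. These falls were smaller than that of IGFBP5. SPTSSB, a small subunit of serine palmitoyltransferase, stood at 123 CPM in sensitive monoculture cells, 39.8 in cocultured sensitive cells, 50.5 in cocultured resistant cells and 45.4 in resistant cells grown alone.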

How the data were processed

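Single-cell RNA of CAMA-1 spheroids (10X Genomics 3′ kit, version 3) was analysed from 3 libraries, 1 per condition. The authors counted UMIs with Cell Ranger 3.0.2 on GRCh37 and deposited the raw counts per gene and barcode. Their deposited annotation gave cluster, phase, transgene class and population (other, text labels) and the mitochondrial percent; per their methods, doublets predicted by Scrublet had been removed, and no doublet caller was run here. A further 12 annotation columns were not used. Barcodes that 2 libraries share numbered 34 to 60, of which 7 to 17 were annotated in both.

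Count rows that lack a symbol hold 0.523% to 0.591% of the UMIs and did not enter the totals. Within each population the counts of all annotated cells were added up and scaled to CPM. Ratios are log2 of CPM + 1, and a fold of 1.5 counts as past; genes needed 50 UMIs over the 2 populations. Folds quoted with an interval are ratios of CPM without pseudocount. Intervals are exact (Poisson for sums, binomial for shares and folds) at 95% and cover counting error only; where nothing was counted the limit is 3 counts. For shares at equal depth each cell was thinned to 5000 UMIs, and no cell had fewer. With 1 library per condition no p-value is given. TMM factors came from edgeR 4.0.16 (R 4.3.3); the other steps used Python 3.11.15, numpy 2.4.6, scipy 1.17.1 and pandas 2.3.3, and the ratio step was tested on simulated data.

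The genes and lists were chosen with earlier results of these data known. Named beside the 10 were the 3 largest log2 ratios of each pathway list in the sensitive comparison and between monocultures, and the 5 genes with the highest Pearson correlation to IGFBP5, of which 1 is not reported here. PIK3R3 was named after its values were seen, to complete a count. Alternatives were other pseudocounts, scalings, minimums, phases, transgene limits, depth limits and a subtraction of 10% of the other cocultured population. Promoter sequences are from RefSeq (GRCh38.p14), and an entry was found for all 10 genes; the motifs were chosen with the sequences in view. Gene positions are from an annotation later than the one used for counting.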

Additional observations from a re-analysis of the deposited data

Results flagged for a closer look

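For 5 of the 10 genes coculture went in opposite directions in the sensitive and the resistant line, with both counting intervals clear of no change; 1 of them is IGFBP5, whose fall in sensitive cells was part of the choice. By the same measure 21.8% of 12244 genes did so. With TMM factors 3 of the 10 did (IGFBP3, IGFBP4 and IGFBP6) and 20.8% of all genes; the resistant intervals of IGFBP5 (log2 ratio 0.01) and IGF2R (0.06) then held no change. The difference between the lines was not tested, since each population is 1 library or part of 1. Counting intervals also leave out the spread between cells. In sensitive cells the variance of IGFBP5 UMIs per cell was 72.4 (monoculture) and 35.2 (coculture) times the mean. In resistant cells it was 45.7 (coculture) and 52.5 (monoculture) times the mean. For IGFBP6 a resistant cell held up to 7 of the 47 UMIs in coculture and up to 13 of the 104 in monoculture. The log2 ratio of coculture over monoculture in sensitive cells minus that in resistant cells was -1.36 for IGFBP5 (-1.28 and 0.08), -1.19 for IGFBP3 (-0.41 and 0.79) and -0.64 for IGF2R (-0.51 and 0.13). It was 0.68 for IGFBP4 (0.35 and -0.33) and 0.51 for IGFBP6 (0.34 and -0.16). The share of cells in S or G2M rose in coculture in sensitive cells, from 11.0% to 44.7%, and was 50.0% and 50.3% in resistant cells.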

How the results depend on the processing

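Of 40 log2 ratios (10 genes in 4 comparisons), 35 kept their sign under all 15 alternatives, and none past the fold changed sign. Of the alternatives, 12 were planned and 3 were chosen after seeing the data (the last of them in 1 comparison). The other pseudocounts, minimums and fold limit cannot change a sign by construction, so a sign kept under them carries no weight. The 5 ratios that changed sign were INSR in sensitive cells and INSR, IGFBP4 and IGFBP6 between monocultures, and IGF1R in sensitive cells, all within the fold. In sensitive cells the count of genes past the fold was 1; it was 4 with a pseudocount of 0.1 CPM, 2 with 10% of the other lineage subtracted and 0 in S or G2M cells only, where the IGFBP5 ratio was -0.57 (lowest over all alternatives -1.37); without clusters 8 and 12 it stayed 1. In resistant cells the count of 1 became 0 with a pseudocount of 10 CPM, a mean of at least 5 CPM, S or G2M cells only, or a 2-fold limit. Between monocultures 5 became 2 with a pseudocount of 10 CPM, a mean of at least 5 CPM or S or G2M cells only (IGFBP5, IGF1R and IRS2 lost in the last), 1 at 2-fold, 4 in G1 cells (IRS2 lost) and 6 with a pseudocount of 0.1 CPM. Within coculture 4 became 1 with a pseudocount of 10 CPM, a mean of at least 5 CPM or at 2-fold, 3 in G1 cells (IGF1R lost), 5 in S or G2M cells, and 6 with a pseudocount of 0.1 CPM or with 10% of the other lineage subtracted. A larger pseudocount or a mean limit removes genes of a few CPM (IGFBP3, IGF1R, IRS1, IRS2) by construction; for the other settings the cause was not tested. No paired analysis was possible because there is 1 library per condition. Depth limits IGFBP3, IGFBP6 and IRS2 most, with 16 to 603 UMIs in a population. The exception is resistant coculture, where IGFBP3 (603 UMIs) lay above IGF1R (545) and IRS1 (590).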

Other observations

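Among the barcodes that the authors' annotation left out, those with a mitochondrial share of 30% or more had higher receptor levels than the annotated cells. They numbered 4489 in the sensitive monoculture library, 6172 in coculture and 2187 in the resistant monoculture library. In CPM over the UMIs outside the mitochondrial genome, IGF1R stood at 24.5, 20.1 and 11.5 in them, against 6.59, 3.95 and 3.37 in the annotated cells of the same libraries. IGF2R stood at 33.6, 27.9 and 27.8 against 11.8, 8.54 and 8.02, and INSR at 19.6, 25.1 and 24.6 against 7.71, 8.69 and 7.60. The rise was not confined to the receptors: IRS1 stood at 16.3, 12.2 and 5.56 against 6.88, 4.60 and 3.04. IRS2, IGFBP3 and IGFBP4 were also higher in each library. IGFBP6 was lower in each, but on only 3, 14 and 6 UMIs, so its direction is uncertain. IGFBP2 stood at 395, 274 and 198 against 399, 213 and 209. It was thus lower in the monoculture libraries only, and there by little. No value over all genes was taken. On this scale IGFBP5 stood at 4620, 2712 and 3255 against 4246, 1902 and 1879. In CPM over all UMIs its direction turned in the first 2 of these libraries, at 2258, 1439 and 1696 against 3385, 1591 and 1576, while IGF2R stayed higher, at 16.4, 14.8 and 14.5 against 9.43, 7.14 and 6.73. The left-out barcodes with a smaller mitochondrial share (825, 5704 and 1758) lay nearer to the annotated cells for IGF1R, at 7.26, 4.62 and 2.84 in CPM outside the mitochondrial genome.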
